A study of Canis lupus familiaris with 29 samples.

Results

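The vacuolar H+-ATPase (V-ATPase) proton pump was described through 10 of its subunit genes, chosen by name with their measured levels in these same samples known. Of the 10 genes, 9 were found by name among the 30951 genes of the count table and 9 passed the filter on low counts. ATP6V1E1, the gene of the E subunit of the stalk, was not found by name and is not analysed here. Because the levels in PPGLs and NAMs were known when the genes were selected, values of the 9 genes are given as a description, with no p-value. How many of them passed the threshold is given beside the share of all genes, counts of all V-ATPase genes under other processing include them, and nothing is read from either.

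RNA of canine pheochromocytomas and paragangliomas (PPGLs), tumors of the chromaffin cells and of the related paraganglia, was sequenced beside normal adrenal medulla (NAM). There were 10 NAMs and 19 PPGLs, the latter split by the authors into PPGL group 1 (7 samples) and PPGL group 2 (12 samples). The tumors came from client-owned dogs of several clinics and the NAMs from healthy research dogs, so that origin and tissue cannot be told apart. Since the PPGL groups were drawn from a principal component analysis of these samples, a comparison of group 1 with group 2 describes that split and is no independent test of it. No treatment or genotype is given in the labels, and ages and breeds were not used here. Total counts per sample ran from 19258054 to 35918182 in NAMs and from 18208718 to 31919833 in PPGLs, and 3 counts, used as the limit of detection, stood for 0.0835 to 0.165 CPM (counts of a gene scaled to a common library total). This limit covers counting error only.

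The V-ATPase uses ATP to move protons into lysosomes, endosomes and secretory granules. Its V1 sector, on the cytosolic side, splits ATP, and its V0 sector, in the membrane, carries the protons; the sectors come apart and rejoin as the pump is switched off and on. In chromaffin granules the proton gradient drives the uptake of catecholamines by vesicular monoamine transporters, of which SLC18A1 encodes a form found in these cells.

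The tissue labels were checked against marker genes. Of 12 chromaffin markers, 11 were found, and CHGB, a granule protein, was the most abundant in each group. In PPGL group 1, replicates 3 and 5 had tyrosine hydroxylase (TH) at 10.8 and 2.15 CPM, whereas dopamine beta-hydroxylase (DBH) stood at 2562 and 2166 CPM. Replicate 7 of the same group had CHGB at 27.1 CPM and the dopamine receptor DRD2 at 0.470 CPM, beside TH at 1382 CPM. In PPGL group 2, replicate 7 had TH at 32.3 CPM. The 3 libraries of group 1 stood apart from the rest of that group, and counts of called genes are also given without them, an alternative chosen after seeing the data. DRD2 was outside the marker lists and was named after its values were seen.

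Genes of the adrenal cortex, the steroid-making tissue around the medulla, differed widely between the groups. Of 11 cortical markers, 10 were found, and their summed level ran from 13130 to 64187 CPM in NAMs, from 37.0 to 1152 CPM in PPGL group 1 and from 219 to 31984 CPM in PPGL group 2. CYP17A1 was the most abundant in NAMs and PPGL group 2, and STAR in PPGL group 1. No cortical marker was at or under 3 counts in every sample of a group. By edgeR, 9 of the 10 markers were lower in PPGLs than in NAMs, where 37.5% of all genes differed at an adjusted p below 0.05. Between the PPGL groups, where 6.92% of all genes differed at an adjusted p below 0.1, CYP21A2, FDX1 and INHA were lower in group 1. The other 6 markers called lower there passed the filter on low counts through group 2, so that nothing is read from their calls. The cortical score, which is the mean log2 CPM of these markers, averaged 9.94 ± 0.74 (SD, n = 10) in NAMs, 1.11 ± 1.52 (n = 7) in PPGL group 1 and 6.54 ± 1.86 (n = 12) in PPGL group 2. In bulk tissue, fewer cells of a type and less RNA per cell cannot be told apart.

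Markers of other cells also moved. Of the T and NK cell markers tested, CD2, CD3E and CD4 were higher in PPGLs by edgeR, as were 4 of 6 fibroblast markers, and 4 of 6 endothelial markers were lower. The Mann-Whitney U-test called 1 of 4 T and NK cell, 2 of 6 fibroblast and 4 of 6 endothelial markers, and edgeR with the cortical score as a covariate 0, 2 and 2. Of 14766 genes in all, edgeR called 5541, DESeq2 6057, the Mann-Whitney U-test 5744 and edgeR with the covariate 2142. With that covariate the log2 FC went from 1.93 to 2.01 for CD3E, from 2.19 to 2.27 for CD2 and from 2.88 to 3.37 for CD4, and the median of the fibroblast markers from 2.20 to 2.51, so that these folds did not shrink. Of the 2 endothelial calls lost, TIE1 went from -0.75 to -0.91 and TEK from -1.14 to -0.44. CD8A and the 3 erythroid markers tested were also called higher, but passed the filter on low counts through PPGLs, so that nothing is read from their calls. The score of Schwann and sustentacular cells averaged 2.93 ± 0.52 (SD, n = 10) in NAMs and 0.76 ± 1.78 (n = 19) in PPGLs. Of its 4 markers tested, edgeR called 0, with 2 at an unadjusted p below 0.05, DESeq2 called 2 and the Mann-Whitney U-test 3. Among all 14766 genes, 6829 had an unadjusted p below 0.05 by edgeR. Of the hepatocyte markers, FGG (edgeR log2 FC -4.33, adjusted p = 0.0024) and APOA1 (edgeR log2 FC -1.26, adjusted p = 0.0203) were tested and were lower in PPGLs. With the cortical covariate they were not called (log2 FC -0.70 and -0.23, edgeR adjusted p = 0.877 and 0.825). Summed fibroblast markers, led by COL1A2 in NAMs and COL3A1 in both PPGL groups, spanned 301 to 728 CPM in NAMs, 188 to 2410 CPM in PPGL group 1 and 430 to 25513 CPM in PPGL group 2. Summed endothelial markers, led by VWF in NAMs and PECAM1 in the tumors, lay between 394 and 1125 CPM in NAMs, and between 196 and 964 CPM in PPGLs. Their part in the results on the pump was not tested.

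To see which parts of the pump differed between tumor and normal medulla, each subunit was compared across PPGLs and NAMs, in CPM scaled by trimmed mean of M-values (TMM). ATP6V0D1 (ENSCAFG00000020360), the d subunit that joins the rotor of V0 to the central stalk, stood far from the other 8 genes. Its lowest, median and highest levels were 367, 626 and 1732 CPM in NAMs, 67.4, 115 and 175 CPM in PPGL group 1, and 87.7, 139 and 399 CPM in PPGL group 2. All 7 samples of PPGL group 1 and 11 of 12 of group 2 stayed under the lowest NAM, and group 2 replicate 10 alone reached into the NAM range, above NAM replicate 4. The log2 FC of PPGLs against NAMs was -2.43 (SE 0.24), rank 247 from the lowest of 14766 genes tested, and that of PPGL group 1 against group 2 was -0.50 (SE 0.27). When the cortical score was added to the model, the log2 FC against NAMs became -1.74 (SE 0.31), and that between PPGL groups turned to 0.85 (SE 0.39).

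In the catalytic V1 sector, the paired A and B subunits form the ring that binds ATP. ATP6V1B2, the B subunit found in most tissues, had levels of 619, 935 and 1564 CPM (lowest, median, highest) in NAMs, 641, 957 and 1336 CPM in PPGL group 1, and 197, 734 and 1078 CPM in PPGL group 2. The 3 groups overlapped, and 4 PPGLs, all of group 2, lay below every NAM. ATP6V1A, the catalytic A subunit, spanned 101 to 163 CPM across NAMs, and 38.8 to 221 CPM across PPGLs, with 2 PPGLs above and 9 below every NAM. The log2 FC of PPGLs against NAMs was -0.30 (SE 0.21) for ATP6V1B2 and -0.28 (SE 0.20) for ATP6V1A.

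The remaining V1 genes encode parts of the stalks and a regulator. ATP6V1H, the H subunit that keeps free V1 from splitting ATP, had levels of 91.0, 109 and 151 CPM in NAMs, 60.7, 179 and 292 CPM in PPGL group 1, and 113, 143 and 246 CPM in PPGL group 2. High levels were found in both PPGL groups, where 10 of 19 samples lay above every NAM, and the lowest of all samples was group 1 replicate 7. ATP6V1C1, the C subunit that detaches when the sectors part, spanned 85.0 to 107 CPM across NAMs, and 74.1 to 222 CPM across PPGLs, with 9 PPGLs above every NAM. ATP6V1D, the D subunit of the central stalk, had NAMs between 82.2 and 127 CPM, and PPGLs between 57.1 and 173 CPM. Its PPGLs reached past the NAMs on both sides, with 5 above and 6 below. The log2 FCs against NAMs were 0.57 (SE 0.18) for ATP6V1H, 0.36 (SE 0.15) for ATP6V1C1 and -0.01 (SE 0.16) for ATP6V1D.

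Besides ATP6V0D1, the V0 genes listed were ATP6V0A1, whose product forms the proton path with the rotor, and ATP6V0B and ATP6V0C, which encode proteins of the rotor ring. ATP6V0B had levels of 158, 200.4 and 234 CPM in NAMs, 76.6, 235 and 411 CPM in PPGL group 1, and 163, 301 and 373 CPM in PPGL group 2. Of 19 PPGLs, 14 lay above every NAM, 10 of them in group 2, and 2 of group 1 lay below. ATP6V0A1 had NAMs between 171 and 244 CPM, and PPGLs between 168 and 362 CPM. ATP6V0C had NAMs between 15.4 and 22.1 CPM, and PPGLs between 5.57 and 26.5 CPM. ATP6V0C is uncertain, because its gene model holds only 189 exon bases and 163 of them are shared with an unnamed gene on the same strand, which averaged 322 CPM in NAMs. The log2 FCs against NAMs were 0.42 (SE 0.18) for ATP6V0B, 0.22 (SE 0.13) for ATP6V0A1 and -0.15 (SE 0.18) for ATP6V0C.

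**Figure D1:**
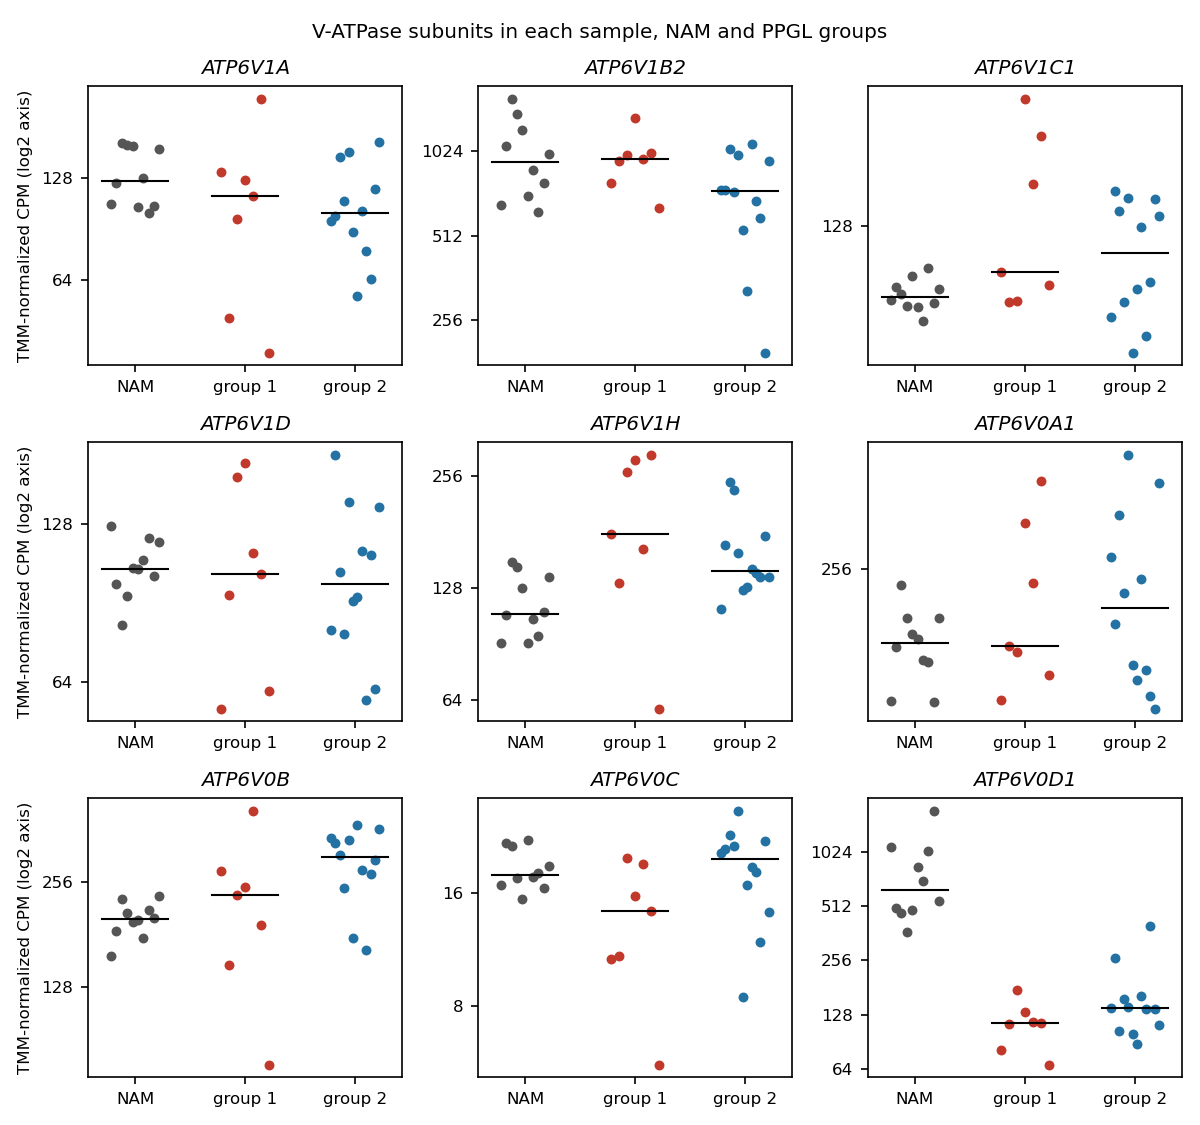
Level of each of the 9 V-ATPase subunit genes in every sample, in TMM-normalized CPM on a log2 axis, with 1 point per sample and a line at the group median. In ATP6V0D1, 18 of 19 PPGLs lie below every NAM, and in the other 8 genes the groups overlap.

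Taking exon length into account put the genes on a common scale. In NAMs, mean levels per kb of exon were 673 ± 361 CPM (SD, n = 10) for ATP6V0D1 and 520 ± 169 for ATP6V1B2, followed by 258 ± 29.7 for ATP6V0B. ATP6V0D1 and ATP6V1B2 overlapped in their spread between samples, as did ATP6V0C at 98.5 ± 12.5 and ATP6V1D at 84.7 ± 10.6 CPM per kb. Genes were not compared within each sample, and ATP6V0D1 and ATP6V1B2 ran opposite ways across NAMs (r = -0.82). The value of ATP6V0C is uncertain, since 163 of its 189 exon bases are shared with another gene. ATP6V0A1 (69.1 ± 7.65) and ATP6V1A (68.1 ± 13.6) also overlapped, as did ATP6V1H (43.3 ± 8.36) and ATP6V1C1 (42.2 ± 2.86), all in CPM per kb. In PPGLs, the order was led by ATP6V1B2 at 423 ± 144 CPM per kb (SD, n = 19) and ATP6V0B at 344 ± 112, whose spreads between samples overlapped. ATP6V0D1 came next at 125 ± 64.8 CPM per kb.

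By edgeR's quasi-likelihood test with Benjamini-Hochberg adjustment over all genes, 5541 of 14766 genes (37.5%) differed between PPGLs and NAMs at an adjusted p below 0.05, of which 3295 (22.3%) were higher and 2246 (15.2%) lower. This balance depended on the method, with 2823 higher and 2921 lower by the Mann-Whitney U-test, and 3699 and 1949 by edgeR under library size. Of the 9 subunit genes, edgeR called 1 higher (ATP6V1H) and 1 lower (ATP6V0D1), a count from which nothing is read since these values chose the genes. Their median log2 FC was -0.01, beside 0.13 over all genes tested. Between PPGL group 1 and group 2, 1015 of 14666 genes (6.92%) differed at an adjusted p below 0.1, 582 (3.97%) higher and 433 (2.95%) lower in group 1. None of the 9 genes was among them by edgeR, a count from which nothing is read, and their median log2 FC was 0.05 beside 0.04 over all genes. Without group 1 replicates 3, 5 and 7, 5661 and 328 genes were called in the comparisons, and the log2 FC of ATP6V0D1 against NAMs was -2.38.

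The listed genes are part of a wider set, of which 15 further subunit and accessory genes were looked up, 12 were found by name and 9 were tested against NAMs. Of these, 3 rose in PPGLs and 3 were called lower by edgeR, where 37.5% of all genes differed. Of the 3 called lower, ATP6V0D2 passed the filter on low counts only through NAMs. TCIRG1, which encodes an a subunit of V0 known from osteoclasts, had levels of 43.2, 72.2 and 121 CPM in NAMs, 6.83, 10.2 and 22.4 CPM in PPGL group 1, and 9.30, 25.5 and 82.5 CPM in PPGL group 2. All samples of PPGL group 1 and 11 of 12 of group 2 lay below every NAM, the exception being group 2 replicate 11. By edgeR, TCIRG1 fell by 1.83 on the log2 scale (SE 0.31, adjusted p = 5.43e-05), with 18 of 19 PPGLs under the lowest NAM. It was also lower in PPGL group 1 than in group 2 by edgeR (log2 FC -1.23, SE 0.39, adjusted p = 0.0828), with every group 1 sample under the group 2 median of 25.5 CPM. That call was lost by the Mann-Whitney U-test, which called 386 of 14666 genes in all. Of the 8 V-ATPase genes outside the listed subunits that were tested between the groups, that test called 0, with 1 at an unadjusted p below 0.05. Among all 14666 genes, 2131 had an unadjusted p below 0.05 by that test. The call of TCIRG1 was also lost in 14 of the 28 other alternatives, with adjusted p over all 28 from 0.0208 (DESeq2) to 0.499 (edgeR, sample number as a block). Sample numbers did not pair samples, and with that block 47 of 14666 genes passed in all. The next highest edgeR adjusted p was 0.435, with the cortical covariate, where no gene of any kind passed. Of these 14, 11 left out a single library (group 1 replicates 1, 2, 3, 5, 6 and 7, group 2 replicates 1, 2, 9, 10 and 11), with log2 FCs from -1.27 to -0.95, the latter without group 2 replicate 11. The log2 FC was -1.48 with the cortical covariate and -0.74 with the sample number as a block. Without group 1 replicates 3, 5 and 7 the log2 FC of TCIRG1 was -1.72 against NAMs (edgeR adjusted p = 0.000188, range over alternatives 1.55e-07 to 0.108) and -1.30 between PPGL groups (edgeR adjusted p = 0.222).

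ATP6V0D2, a d subunit with narrow tissue expression, was low throughout, with NAMs between 0.753 and 7.37 CPM and PPGLs between 0 and 2.58 CPM, of which 9 held 3 counts or fewer. All NAMs held 20 counts or more and 5 of 19 PPGLs held 10 or more, so that the gene was tested only because of the group in which it is high. Its log2 FC of -2.35 (SE 0.70) is therefore a description with no test, and at counts this low it depends on the prior count. ATP6V1C2, a C subunit of lung and kidney, had NAMs between 0.372 and 1.69 CPM and PPGLs between 0 and 1.13 CPM. Its call by edgeR (log2 FC -1.13, SE 0.46, adjusted p = 0.0497, 10 of 19 PPGLs below every NAM) was lost in 25 of 37 alternatives, with adjusted p up to 0.135 and down to 0.0214 by edgeR.

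The 3 genes that rose were ATP6V1F, ATP6AP1 and ATP6V1G2. ATP6V1F, the F subunit of the central stalk, had NAMs between 102 and 139 CPM and PPGLs between 96.2 and 247 CPM, 11 of 19 above the highest NAM (edgeR log2 FC 0.39, SE 0.11, adjusted p = 0.00815). ATP6AP1, an accessory protein needed to assemble V0, had NAMs between 189 and 283 CPM and PPGLs between 148 and 686 CPM. It lay above every NAM in 13 of 19 PPGLs (edgeR log2 FC 0.64, SE 0.19, adjusted p = 0.0085). ATP6V1G2, a G subunit of neurons, had NAMs between 2.52 and 4.94 CPM and PPGLs between 2.12 and 21.8 CPM, with 9 of 19 above every NAM (edgeR log2 FC 0.76, SE 0.29, adjusted p = 0.0409). Its call was lost without group 1 replicate 3, the highest sample (edgeR log2 FC 0.52, adjusted p = 0.0668) and in 15 of 38 alternatives in all (adjusted p from 0.0246 to 0.495), and 214 of its 1257 exon bases are shared with NFKBIL1 on the opposite strand, which counts cannot separate where strand was not used.

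Neither ATP6V0A2, ATP6V0E1 nor ATP6AP2 passed the test by edgeR. ATP6V0A2, an a subunit of the Golgi, had an edgeR log2 FC of -0.37 (adjusted p = 0.0618, 12 of 19 PPGLs below every NAM). ATP6V0E1, a small V0 protein, had 0.36 (adjusted p = 0.0987, 9 of 19 above), and ATP6AP2, the prorenin receptor, 0.41 (adjusted p = 0.138, 8 of 19 above). ATP6V0A2 passed in 6 of 38 alternatives. These were DESeq2 (log2 FC -0.38, adjusted p = 0.0437), the sample number as a block (edgeR adjusted p = 0.043), and edgeR without group 1 replicate 7 (log2 FC -0.43, adjusted p = 0.0155), without group 2 replicate 3 (adjusted p = 0.04), without group 2 replicate 11 (adjusted p = 0.0261) and without group 1 replicates 3, 5 and 7 (adjusted p = 0.026). ATP6V0E1 passed in 3 of 38, by edgeR under library size (adjusted p = 0.0387), without group 1 replicate 7 (log2 FC 0.42, adjusted p = 0.0112) and without group 1 replicates 3, 5 and 7 (adjusted p = 0.0108). The edgeR adjusted p reached 0.261 for ATP6V0A2 (cortical covariate) and 0.205 for ATP6V0E1 (sample number as a block). Sample numbers did not pair samples. The kidney and epididymis form ATP6V1B1 was at or under 3 counts in 10 of 10 NAMs and 18 of 19 PPGLs. ATP6V1G3 was at or under 3 counts in all 29 samples, and ATP6V0A4 in 7 of 10 NAMs and 6 of 19 PPGLs. ATP6V1E2, ATP6V1G1 and ATP6V0E2 were not found by name and are not analysed here.

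**Figure D2:**
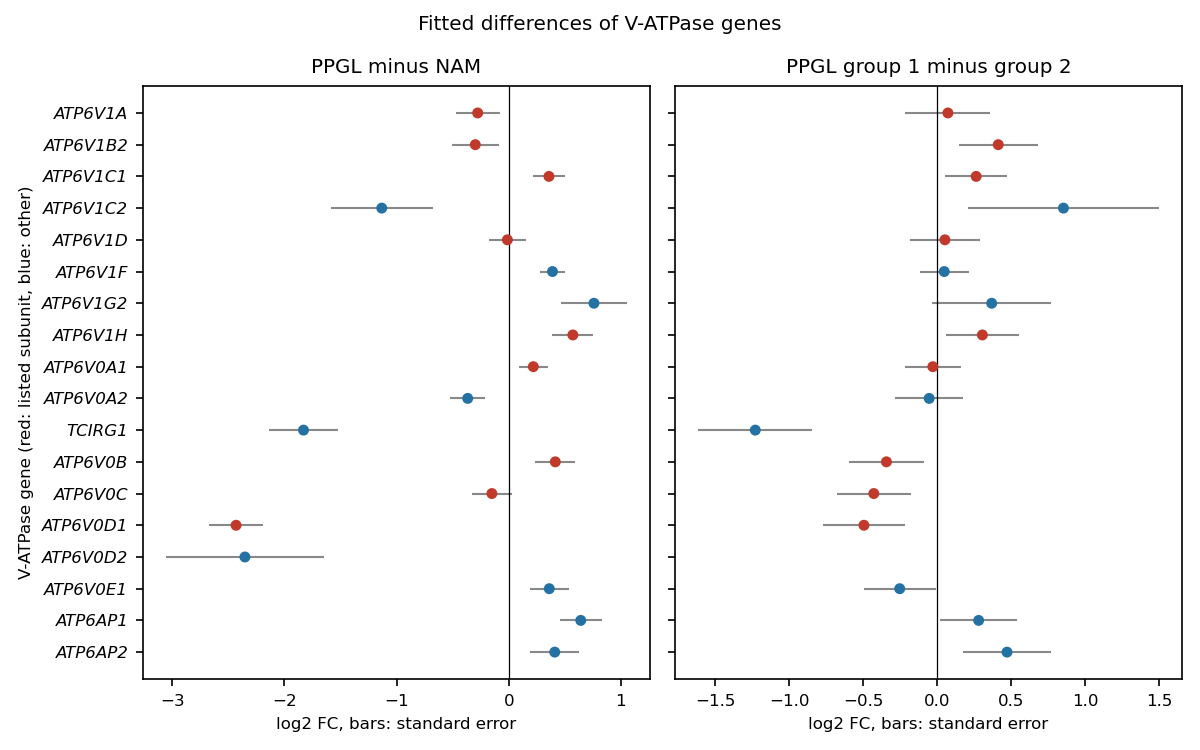
Fitted log2 FC of V-ATPase genes for PPGL minus NAM (left) and PPGL group 1 minus group 2 (right), with bars for the standard error. Listed subunits are in red and other genes of the pump in blue; ATP6V0D1 stands at -2.43, TCIRG1 at -1.83 and ATP6V0D2 at -2.35 on the left.

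The cortical markers moved with these calls. When the cortical score entered the model as a covariate, none of the 9 other V-ATPase genes was called by edgeR, and 5 had an unadjusted p below 0.05. These 9 include ATP6V0D2, which was tested only through NAMs. Of 14766 genes in all, 2142 were called and 4419 had an unadjusted p below 0.05 in that fit. Most folds of the V-ATPase genes stayed about as large while their errors grew. With the covariate the log2 FC was 0.41 (SE 0.16, edgeR adjusted p = 0.0796) for ATP6V1F, 0.56 (SE 0.27, edgeR adjusted p = 0.156) for ATP6AP1, -1.47 (SE 0.67, edgeR adjusted p = 0.135) for ATP6V1C2 and -1.95 (SE 0.99) for ATP6V0D2. The folds of TCIRG1 (log2 FC -1.05, SE 0.45, edgeR adjusted p = 0.108) and ATP6V1G2 (log2 FC 0.44, SE 0.41, edgeR adjusted p = 0.495) became smaller. Of the 9 listed genes, ATP6V1D (0.12, SE 0.23) and ATP6V0C (0.13, SE 0.25) turned direction against NAMs, from -0.01 and -0.15. Without that covariate, DESeq2 and the Mann-Whitney U-test each called 7 of the 9 other V-ATPase genes, where they called 6057 and 5744 of 14766 genes in all. The cortical score lay below that of every NAM in all PPGLs but group 2 replicate 10, and its part in the result was not told apart from that of the tissue.

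ATP6V0D1 and HSD11B2, which inactivates cortisol, lie end to end on chromosome 5 of CanFam3.1. ATP6V0D1 spans 81926612 to 81965526 on the plus strand and HSD11B2 spans 81966937 to 81968991 on the minus strand, so that their 3′ ends face each other across 1410 bases, and their annotated exons do not overlap. HSD11B2, named after its values were seen, had levels of 642, 857 and 2054 CPM in NAMs, 1.14, 4.50 and 8.17 CPM in PPGL group 1, and 6.21, 130 and 1082 CPM in PPGL group 2. As for ATP6V0D1, 18 of 19 PPGLs lay below every NAM, and group 2 replicate 10 was the exception in both genes. On the other side, AGRP spans 81925055 to 81925845 on the plus strand, the strand of ATP6V0D1, and ends before ATP6V0D1 starts. Whether reads past the end of HSD11B2 or of AGRP entered the counts of ATP6V0D1 was not tested. The strand setting of the counting is not given in the sources used here.

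**Figure D3:**
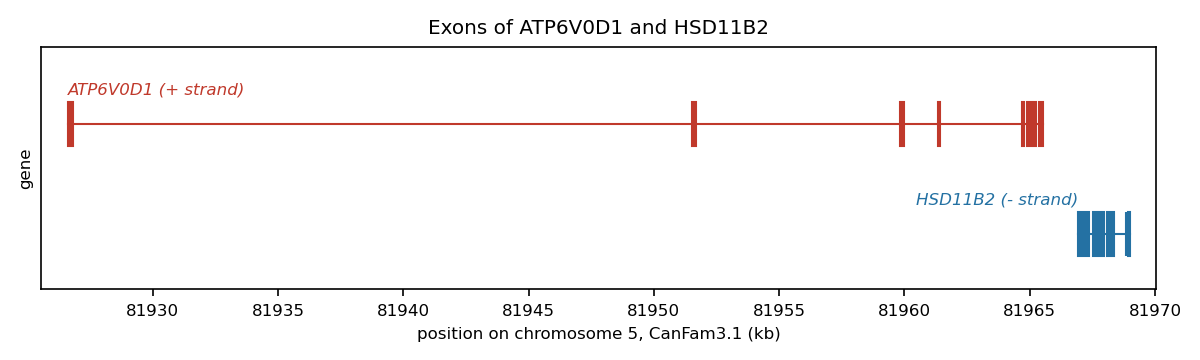
Annotated exons (boxes) and introns (lines) of ATP6V0D1 and HSD11B2 along chromosome 5 of CanFam3.1, in kb. The genes lie on opposite strands with their 3′ ends 1410 bases apart.

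Within groups, each of the 9 genes and TCIRG1 was set against the cortical, chromaffin and macrophage scores, and ATP6V0D1 and ATP6V1B2 against a neighboring gene, which made 96 relations. Because the 9 genes were chosen by their levels in these samples and the relations after seeing the data, Pearson's r and Spearman's rho are given as a description with no test. In NAMs (n = 10), r with the chromaffin score was high for some genes of both sectors. It was 0.96 for ATP6V1H (rho 0.95, r = 0.93 without the 2 samples farthest from the median), 0.93 for ATP6V1B2 (rho 0.94, r = 0.84 without the 2) and 0.91 for ATP6V1A (rho 0.87, r = 0.91 without the 2). In V0 it was 0.86 for ATP6V0A1 (rho 0.82, r = 0.74 without the 2) and 0.67 for ATP6V0B (rho 0.56, r = 0.58 without the 2). For ATP6V1C1 r was 0.031 (rho 0.079, r = 0.23 without the 2) and for ATP6V0C 0.13 (rho 0.067, r = -0.13 without the 2).

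Other genes of both sectors had a negative r with the chromaffin score in NAMs. TCIRG1 gave r = -0.88 (rho -0.83, r = -0.74 without the 2 farthest samples) and ATP6V0D1 r = -0.75 (rho -0.83, r = -0.65 without the 2). ATP6V1D gave r = -0.73 (rho -0.72), a relation that rests on the 2 farthest samples, since r was -0.27 without them. With the cortical score in the same NAMs several of these genes had r of the opposite sign, with -0.88 for ATP6V1A (rho -0.87), -0.81 for ATP6V1B2 (rho -0.79), -0.81 for ATP6V1H (rho -0.76), 0.78 for TCIRG1 (rho 0.68) and 0.71 for ATP6V0D1 (rho 0.71). Without the 2 farthest samples r was -0.84, -0.75, -0.79, 0.66 and 0.55.

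In tumors r with the chromaffin score was nearer to 0 for most of these genes. In PPGL group 1 (n = 7) and group 2 (n = 12), r was 0.23 and 0.17 for ATP6V1H (rho 0.18 and 0.20), 0.16 and 0.10 for ATP6V1A (rho 0.14 and 0.12), and 0.30 and 0.35 for ATP6V0A1 (rho 0.29 and 0.25). ATP6V1B2 gave 0.29 and 0.63 (rho 0.21 and 0.26), the latter resting on the 2 farthest samples (r = 0.0083 without them). ATP6V0D1 gave -0.11 and 0.21 (rho -0.18 and 0.084), and TCIRG1 -0.098 and -0.64 (rho -0.14 and -0.45), the latter also resting on the 2 farthest samples (r = -0.046 without them). In group 1 without the 2 farthest samples, which leaves 5, r was 0.80 for ATP6V1H, 0.83 for ATP6V1B2, 0.51 for ATP6V1A, 0.56 for ATP6V0A1 and 0.92 for ATP6V0D1. ATP6V1D had r = 0.67 in group 2 (rho 0.62, r = 0.65 without the 2), against its negative r in NAMs. Whether the relations differ between NAMs and tumors was not tested.

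ATP6V1B2 lies head to head with SLC18A1, 13816 bases away on chromosome 25, and SLC18A1 is itself on the chromaffin list. Their r was 0.94 in NAMs (rho 0.93, r = 0.92 without the 2 farthest samples), 0.53 in PPGL group 1 (rho 0.0, r = -0.37 without the 2) and 0.77 in group 2 (rho 0.23, r = 0.17 without the 2), so that in tumors the relation rests on those samples.

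In PPGL group 2 ATP6V0D1 ran with the cortical score, at r = 0.80 (rho 0.83, r = 0.59 without the 2 farthest samples). In PPGL group 1, where the cortical markers were low, r was 0.33 (rho 0.25, r = 0.31 without the 2). ATP6V0D1 and HSD11B2 ran together in NAMs, with r = 0.86 (rho 0.82, r = 0.97 without the 2), and in PPGL group 2, with r = 0.79 (rho 0.88, r = 0.86 without the 2). In PPGL group 1 r was 0.85 (rho 0.75) but 0.34 without the 2, so that the relation rests on those samples.

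TCIRG1 ran with macrophage markers in PPGL group 2, where its r with the macrophage score was 0.89 (rho 0.82, r = 0.77 without the 2 farthest samples). In PPGL group 1, the other side of its difference between tumors, r was 0.072 (rho 0.18, r = -0.59 without the 2), and in NAMs it was 0.25 (rho 0.25, r = -0.09 without the 2). Of 10 macrophage markers, 9 were found, C1QC was the most abundant in each group, and their summed level ran from 163 to 2524 CPM in PPGL group 2, 232 to 1273 CPM in group 1 and 418 to 1397 CPM in NAMs. Group 2 replicate 11, the highest PPGL for TCIRG1, had the highest macrophage score, and also the highest T and NK cell score (4.01) and fibroblast score (11.35) of all 29 samples, with replicate 9 of that group next in all 3. In the same group, r with that score was -0.78 for ATP6V1B2 (rho -0.59, r = -0.70 without the 2) and -0.70 for ATP6V0A1 (rho -0.76, r = -0.65 without the 2). The part of macrophages, or of the other cells, in the difference between PPGL groups was not tested.

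**Figure D4:**
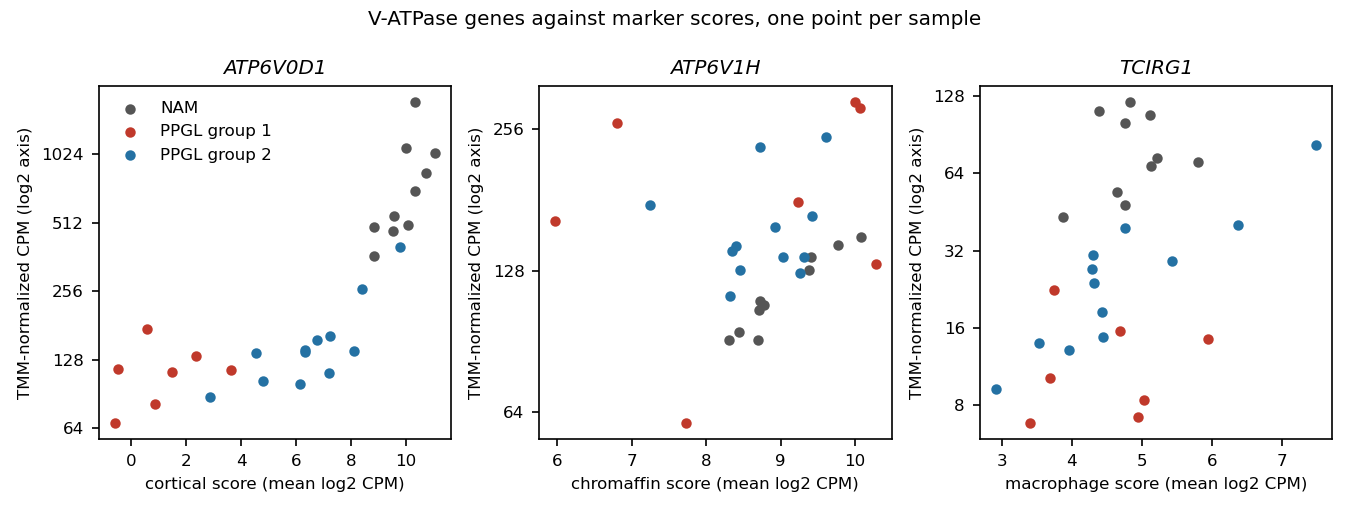
Level (TMM-normalized CPM, log2 axis) of ATP6V0D1 against the cortical score, ATP6V1H against the chromaffin score and TCIRG1 against the macrophage score (mean log2 CPM of each marker list), with 1 point per sample colored by group. ATP6V1H follows the chromaffin score in NAMs (r = 0.96) with r = 0.23 and 0.17 in PPGL groups 1 and 2. Without the 2 farthest samples of each group, these were 0.93, 0.80 and 0.17. TCIRG1 follows the macrophage score in PPGL group 2 (r = 0.89) with r = 0.072 in group 1.

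The 9 genes also varied among themselves. As a description with no test, the 36 pairs of the 9 genes had a median r of 0.05 across NAMs (-0.85 to 0.93, 19 positive), 0.66 across PPGL group 1 (0.23 to 0.92, 36 positive) and 0.36 across PPGL group 2 (-0.25 to 0.79, 30 positive). For ATP6V0D1 the median over its 8 pairs was -0.52 in NAMs, 0.64 in PPGL group 1 and -0.0044 in group 2. Without group 1 replicate 7, left out after seeing the data, the median in group 1 was 0.47 (-0.15 to 0.91, 30 positive), and 0.36 for ATP6V0D1. The mean log2 CPM of the 9 genes ran from 7.23 to 7.47 in NAMs, from 6.17 to 7.54 in PPGL group 1 and from 6.67 to 7.51 in PPGL group 2. Replicate 7 was the lowest of group 1, whose range without it began at 6.75.

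Across the 19 PPGLs, the genes whose pattern was most like the mean of the 9 (each gene scaled to its own mean and SD) were SYN1 (r = 0.90, rho = 0.86), SYVN1 (r = 0.88, rho = 0.86) and B4GAT1 (r = 0.84, rho = 0.82). SMPD1, GGNBP2, HNRNPH2, GPR160, LMBRD1 and SDHB came after them, with r from 0.84 down to 0.81. Leaving out group 1 replicate 7 gave r = 0.83 for SYN1, 0.87 for SYVN1 and 0.77 for B4GAT1. For the other genes named here it gave r from 0.70 (GPR160) to 0.78 (GGNBP2). These are descriptions with no test, picked from the highest among named genes.

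Of the genes of assembly and regulation listed, 10 were found by name and tested, of which 2 rose and 1 fell in PPGLs by edgeR, where 37.5% of all genes differed. NCOA7, a TLDc protein that binds V1, had NAMs between 128 and 233 CPM and PPGLs between 115 and 670 CPM, with 14 of 19 above every NAM (edgeR log2 FC 0.98, SE 0.22, adjusted p = 0.00103). TMEM199, an assembly factor of V0, lay above every NAM in 15 of 19 PPGLs (edgeR log2 FC 0.50, SE 0.14, adjusted p = 0.00523). TLDC2, another TLDc protein, had NAMs between 2.71 and 24.9 CPM and PPGLs between 0.117 and 8.08 CPM, 15 of 19 under the lowest NAM (edgeR log2 FC -2.39, SE 0.53, adjusted p = 0.000841). The other 7 did not pass. DMXL2, a rabconnectin that helps V1 rejoin V0, had a log2 FC of 0.59 (edgeR adjusted p = 0.0601, 10 of 19 above every NAM), and the log2 FCs of VMA21, CCDC115, DMXL1, WDR7, OXR1 and MEAK7 lay between -0.20 and 0.14. With the cortical covariate NCOA7 still passed. TMEM199 kept its fold but lost its call (log2 FC 0.51, SE 0.19, edgeR adjusted p = 0.077), whereas TLDC2 lost its call with a smaller fold (log2 FC -1.09, SE 0.59, edgeR adjusted p = 0.217). ROGDI was not found by name.

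The TFEB family of transcription factors is known to drive lysosomal genes, V-ATPase subunits among them. None of the 4 was called in PPGLs against NAMs by edgeR, DESeq2 or the Mann-Whitney U-test, and 0 had an unadjusted p below 0.05. By edgeR, 5541 of 14766 genes (37.5%) were called in all and 6829 had an unadjusted p below 0.05. With only 4 genes, nothing is read from this count. The log2 FCs were -0.06 for TFEB (95% interval -0.53 to 0.40), -0.04 for TFE3 (-0.20 to 0.12), -0.13 for MITF (-0.74 to 0.47) and 0.36 for TFEC (SE 0.56).

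Of 37 lysosomal genes tested, 6 rose and 5 fell in PPGLs by edgeR, where 37.5% of all genes differed. LIPA, the acid lipase, had NAMs between 122 and 434 CPM and PPGLs between 41.8 and 155 CPM, with 18 of 19 below every NAM (edgeR log2 FC -1.78, SE 0.21, adjusted p = 4.4e-07). NPC1, a cholesterol exporter, was below every NAM in 18 of 19 PPGLs (edgeR log2 FC -1.26, SE 0.22, adjusted p = 5.77e-05). GAA, the acid glucosidase, was above every NAM in 16 of 19 (edgeR log2 FC 0.54, SE 0.13, adjusted p = 0.00141). Beside LIPA and NPC1, the genes that fell were LAMP1, TMEM175 and MANBA, and beside GAA, those that rose were SCARB2, CTNS, NPC2, PSAP and GRN, all named after their values were seen. With the cortical covariate LIPA, GAA and NPC2 (log2 FC 1.04, SE 0.31, edgeR adjusted p = 0.0231) still passed, PPT1 was newly called (log2 FC 0.61, SE 0.18, edgeR adjusted p = 0.0219, against 0.33 without the covariate), and NPC1 lost its call with a smaller fold (log2 FC -0.58, SE 0.27, edgeR adjusted p = 0.146). The other 3 that fell also lost their calls. LAMP1 turned from -0.44 to 0.06 (SE 0.19, edgeR adjusted p = 0.864), TMEM175 went from -0.37 to -0.07 (SE 0.18, edgeR adjusted p = 0.817), and MANBA from -0.52 to -0.48 (SE 0.31, edgeR adjusted p = 0.303). Of those that rose, SCARB2 (0.73 to 0.57, edgeR adjusted p = 0.14), CTNS (0.44 to 0.48, edgeR adjusted p = 0.0536), PSAP (0.66 to 0.74, edgeR adjusted p = 0.117) and GRN (0.54 to 0.60, edgeR adjusted p = 0.184) lost their calls.

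The Ragulator and Rag GTPases dock the kinase complex mTORC1 on the lysosome beside the V-ATPase. Of 13 genes tested, which were 4 of the Ragulator, the 4 Rag GTPases, and MTOR, RPTOR, MLST8, RHEB and FLCN of mTORC1 and its control, 3 rose and 1, RRAGA (named after its values were seen), fell by edgeR, where 37.5% of all genes differed. RRAGD, a Rag GTPase, had NAMs between 10.7 and 17.8 CPM and PPGLs between 11.4 and 68.1 CPM, with 18 of 19 above every NAM (edgeR log2 FC 1.55, SE 0.23, adjusted p = 1.03e-05). RPTOR, the scaffold of mTORC1, was above every NAM in 12 of 19 PPGLs (edgeR log2 FC 0.44, SE 0.13, adjusted p = 0.00749), and RRAGB in 14 of 19 (edgeR log2 FC 0.77, SE 0.23, adjusted p = 0.00808). With the cortical covariate RRAGD still passed. RRAGB lost its call with a fold of about the same size (log2 FC 0.63, SE 0.31, edgeR adjusted p = 0.166), as did RRAGA (log2 FC -0.38, SE 0.18, edgeR adjusted p = 0.147, against -0.34 without the covariate), and RPTOR with a smaller one (log2 FC 0.27, SE 0.17, edgeR adjusted p = 0.304).

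Of 21 granule genes tested, 4 rose and 1 fell in PPGLs by edgeR, where 37.5% of all genes differed. DESeq2 called 7 of the 21, the Mann-Whitney U-test 6, and edgeR without group 1 replicates 3, 5 and 7 called 8, where it called 5661 of 14584 genes in all. Of 14766 genes in all, DESeq2 called 6057 and the Mann-Whitney U-test 5744. SYT1 (up) and VGF (down) were named after their values were seen, and the other 3 by smallest adjusted p. SCG3, a granin, had NAMs between 603 and 2656 CPM and PPGLs between 109 and 10970 CPM, with 15 of 19 above every NAM (edgeR log2 FC 2.01, SE 0.45, adjusted p = 0.000958). CYB561, which supplies electrons to granules, was above every NAM in 10 of 19 (edgeR log2 FC 1.15, SE 0.27, adjusted p = 0.00166), and SYP in 9 of 19 (edgeR log2 FC 0.98, SE 0.24, adjusted p = 0.00236). With the cortical covariate SCG3 and CYB561 still passed, and SYP lost its call (log2 FC 0.65, SE 0.32, edgeR adjusted p = 0.171), as did SYT1 (log2 FC 0.58, SE 0.40, edgeR adjusted p = 0.336) and VGF (log2 FC -0.38, SE 0.82, edgeR adjusted p = 0.788). Called only with the covariate were SLC18A2 (log2 FC 4.74, SE 1.46, edgeR adjusted p = 0.0277), PCSK2 (log2 FC -3.83, SE 1.08, edgeR adjusted p = 0.017) and SV2A (log2 FC -1.43, SE 0.30, edgeR adjusted p = 0.00232), named after their values were seen. Without it their log2 FCs were 2.53, -0.10 and -0.51, none of them called by edgeR.

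Between the PPGL groups, where 6.92% of all genes differed, edgeR called 3 of the 21 granule genes. DESeq2 called 7, the Mann-Whitney U-test 1, edgeR without group 1 replicates 3, 5 and 7 called 2, and none was called by edgeR with the cortical covariate or with the sample number as a block, where 2 and 3 had an unadjusted p below 0.05. With the covariate 0 of 14666 genes of any kind passed, and with the block 47, so that these losses are not particular to granule genes. In these 2 fits, 1511 and 1526 of the 14666 genes had an unadjusted p below 0.05. Of the 14666 genes DESeq2 called 1793 and the Mann-Whitney U-test 386, and edgeR without those 3 replicates called 328 of 15178. Named after their values were seen, SV2A was higher in group 1 (edgeR log2 FC 1.11, SE 0.26, adjusted p = 0.0244, median 115 against 48.5 CPM). CPE (log2 FC -1.18, SE 0.32, edgeR adjusted p = 0.0453, median 159 against 427 CPM) and VGF (log2 FC -2.02, SE 0.65, edgeR adjusted p = 0.0874, median 29.3 against 71.2 CPM) were lower in group 1. With the covariate their log2 FCs were 1.00, -0.90 and -2.36. In the same comparison edgeR called none of the 10 assembly, 37 lysosomal or 13 Ragulator genes, of which 1, 6 and 1 had an unadjusted p below 0.05. Of all 14666 genes, 2845 had an unadjusted p below 0.05 by edgeR. DESeq2 called 1, 2 and 1 of the 3 lists, and the Mann-Whitney U-test 0 of each.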

How the data were processed

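Raw counts of reads over exons of each Ensembl gene (CanFam3.1), as deposited by the authors, were used for 29 samples. The authors made them from single-end reads of a stranded mRNA kit aligned with STAR; their processing notes name FastQC, Picard and HTSeq, whereas the deposited table is named for featureCounts, so the counting tool is uncertain, and the treatment of multi-mapping reads and of bases shared by 2 genes is not given in the sources used here. Counts were filtered with edgeR 4.0.16 (filterByExpr, at least 10 counts), scaled by TMM and tested by its quasi-likelihood test in R 4.3.3, with all genes adjusted together. CPM were computed from these counts. DESeq2 1.42.0, the Mann-Whitney U-test, other scalings and filters, a cortical covariate, the sample number as a block and leaving out each sample were alternatives. The Mann-Whitney U-test gave counts of calls only and is not among the alternatives counted for single genes. The steps were tested on simulated data. Subunits and gene lists were chosen with earlier results of these data known. Named were all listed subunits, all other pump, assembly and TFEB genes, and the 3 genes of smallest adjusted p in each other list; some genes these rules pick are not reported here. The labels number the samples without naming animals, so p-values measure the spread between these samples.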

Additional observations from a re-analysis of the deposited data

Results flagged for a closer look

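Samples standing apart within a group were looked for in 38 groups of 7 or 10 samples by the gap to the nearest sample as a share of the range, and 5 passed, where chance gives about 1 in 20. ATP6V0D1 in NAM replicate 9 was highest at 1732 CPM, against 1093 in the next (share 0.468). Since its levels chose that gene, this is a description and nothing is read from its passing. ATP6AP2 in NAM replicate 8 was highest at 318 CPM against 272 (0.603), and in PPGL group 1 replicate 6 at 1134 against 460 CPM (0.712). ATP6V1G2 in PPGL group 1 replicate 3 reached 21.8 CPM against 7.93 (0.705). ATP6V0D2 in PPGL group 1 replicate 7 reached 2.58 CPM against 0.381 (0.853). TCIRG1 differed between the PPGL groups by edgeR, with a log2 FC of -1.23 for group 1 against group 2. That call was lost in 14 of 28 alternatives and by the Mann-Whitney U-test.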

How the results depend on the processing

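With the cortical score as a covariate, genes changed between PPGLs and NAMs went from 5541 to 2142, V-ATPase genes lower from 4 to 1 and higher from 4 to 0 (all counts of V-ATPase genes include the 9 subunits, whose values chose them, so that nothing is read from these counts), and the subunits' median log2 FC to 0.13 (0.53 between PPGL groups, where 0 genes of any kind passed by edgeR, 1511 having an unadjusted p below 0.05); the cause was not tested. Genes changed between PPGL groups numbered 1015, but 1793 with DESeq2, 386 with the Mann-Whitney U-test, 2567 with all 3 groups in the fit and 328 without group 1 replicates 3, 5 and 7 (chosen after seeing the data). Leaving out single samples gave 525 (group 1 replicate 7) to 1218, with 674 without group 2 replicate 4. V-ATPase genes higher in PPGLs were 7 under library size, 7 without replicates 3, 5 and 7, and 3 to 7 over single samples left out (7 without group 1 replicate 7). V-ATPase genes changed between PPGL groups went from 1 to 0 by the Mann-Whitney U-test, the covariate and without those 3 replicates, and 0 to 1 over single samples, where 11 of 19 gave 0 (group 1 replicates 1, 2, 3, 5, 6 and 7, group 2 replicates 1, 2, 9, 10 and 11). Sample numbers did not pair samples: over 24 same-numbered pairs r ran from -0.232 to 0.251 (median -0.013), and 4 of 27 samples correlated best with their own number. With the number as a replicate block, 4653 genes (2273 higher, 2380 lower) changed against NAMs, 47 between PPGL groups, and 0 V-ATPase genes there; ATP6V1F (PPGL group 1 against group 2) turned to -0.026 and ATP6V0A2 to 0.15. Between the groups ATP6V0A2 was 0.031 under library size and ran from -0.25 to 0.039 over single samples, ATP6V1F from -0.11 to 0.14, and ATP6V1G2 from -0.28 (without group 1 replicate 3) to 0.52 and -0.11 without replicates 3, 5 and 7. None of these 3 genes passed between PPGL groups. The mean subunit level was set against marker scores as r over 19 PPGLs. Values in brackets are for group 1, group 2 and all PPGLs without the 2 farthest samples. It moved for the cortex from 0.28 (0.55, 0.33 and 0.13) and for chromaffin cells from 0.15 (0.05, 0.40 and 0.46). Macrophages moved from -0.37 (-0.17, -0.58 and -0.33) and T and NK cells from -0.21 (0.24, -0.49 and -0.06). Endothelium moved from -0.16 (0.19, -0.70 and -0.15) and fibroblasts from -0.42 (-0.34, -0.64 and -0.42). Erythroid cells moved from -0.06 (0.49, -0.46 and 0.19) and hepatocytes from 0.22 (0.68, -0.058 and -0.097). Over the V-ATPase genes outside the 9 subunits, without ATP6V0D2, 446 of 523 single-gene alternatives kept direction and side of the threshold, 57 lost a call, 9 gained one and 11 changed direction. Many of the 446 belong to genes with no call to lose, so that they do not measure how stable the calls are. Losses were 25 of 37 for ATP6V1C2, 15 of 38 for ATP6V1G2 and 14 of 28 for TCIRG1 between PPGL groups. Against NAMs they were 1 of 38 each for ATP6V1F, ATP6AP1 and TCIRG1.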
